A study of Mus musculus with 12 samples.

Results

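Microglia are the resident macrophages of the brain, and the genes described here are 37 markers of that cell type: growth factor receptors, transcription factors, surface receptors, immune signalling adaptors and lysosomal proteins. They were chosen by symbol from a list of microglia markers from which the complement genes had been left out, and each of the 37 matched an Ensembl identifier among the 54446 in the deposited count tables. RNA sequencing had been done on whole hippocampus and whole cerebellum of mice lacking Syt14 (labelled Syt14-/-, here KO) and of wild-type mice (Syt14+/+, here WT). The 4 groups were KO hippocampus, WT hippocampus, KO cerebellum and WT cerebellum, with 3 libraries each, and the numbers in the sample descriptions tie both tissues to 6 mice. No source used here gives age, sex, strain background, the altered piece of Syt14 or the cell types in which it was lost.

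Microglia enter the brain in early development and thereafter maintain themselves by local division, for which they need the receptor encoded by Csf1r and its ligands CSF1 and IL-34. The transcription factors PU.1 (gene Spi1), IRF8, RUNX1 and SALL1 specify and hold their identity, and TGF-beta from their surroundings keeps the resting programme on. Resting microglia survey the tissue with fine processes, sense nucleotides and neuronal ligands through receptors such as P2RY12 and CX3CR1, and take up debris through TREM2, Fc receptors and integrins, with digestion in lysosomes. Hippocampal and cerebellar microglia are known to differ in density, shape and immune gene levels in mice.

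Each library held 24355572 to 34971359 counts, and the 37 genes together took 6813 to 17811 of them, or 0.0280 to 0.0598%. The lowest count of any member in any library was 13, so every member was above the limit of 3 counts that a 0 would allow (0.0858 to 0.123 CPM, counts scaled to library size) in every library. Syt14 itself was still counted in KO tissue, at 28.9, 27.9 and 30.5 CPM in KO hippocampus against 38.6, 38.9 and 38.1 CPM in WT hippocampus, and at 30.5, 30.6 and 30.3 CPM in KO cerebellum against 33.8, 33.7 and 38.3 CPM in WT cerebellum. It was lower in all KO libraries of each tissue, but did not pass the test over all genes (edgeR adjusted p = 0.686 in hippocampus and 0.644 in cerebellum). Markers of hippocampal neurons summed to 5151 to 5545 CPM in hippocampus and to 399 to 455 CPM in cerebellum, and markers of cerebellar neurons to 157 to 195.9 CPM in hippocampus and to 6334 to 7163 CPM in cerebellum, as the labels have it. The column names carry the mark L1 in all hippocampus libraries and L4 in all cerebellum libraries, and that mark and the tissue cannot be told apart.

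The promoters of 6 members on which the comparisons turn (the receptor P2ry12, Trem2, Cd68 and the 3 Fc receptors) are shown here because PU.1, the factor that defines the macrophage lineage, binds a short purine-rich site. The sequences are the 250 bases before a RefSeq start of each gene, 5′ to 3′ on the gene's own strand, on GRCm38.p6. The starts of P2ry12 and Cd68 were not found in transcripts of GENCODE M21, the annotation used here for gene names. The Fcgr2b and Fcgr3 windows lie inside the genes as GENCODE M21 places them. The window is chr3:59262986-59263235 (minus strand) for P2ry12, chr17:48346151-48346400 (plus strand) for Trem2, chr11:69666171-69666420 (minus strand) for Cd68, chr3:96293970-96294219 (minus strand) for Fcgr1, chr1:170976072-170976321 (minus strand) for Fcgr2b and chr1:171059395-171059644 (minus strand) for Fcgr3, of which 1 of 2 annotated starts is shown. Capitals mark every match, on either strand, to the PU.1 box core GAGGAA, to the longer Ets site AGGAAGT, or to GGAANNGAAA, the composite site of an Ets factor with an interferon regulatory factor. Of the 2 Fcgr3 windows, the one with the most such matches was chosen for printing, or the first by position if equal. Its match is therefore not a separate result.
P2ry12: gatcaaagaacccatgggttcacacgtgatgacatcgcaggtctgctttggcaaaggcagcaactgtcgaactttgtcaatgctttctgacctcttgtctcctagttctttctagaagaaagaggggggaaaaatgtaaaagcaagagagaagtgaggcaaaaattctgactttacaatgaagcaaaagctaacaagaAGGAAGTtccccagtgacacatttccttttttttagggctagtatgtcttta
Trem2: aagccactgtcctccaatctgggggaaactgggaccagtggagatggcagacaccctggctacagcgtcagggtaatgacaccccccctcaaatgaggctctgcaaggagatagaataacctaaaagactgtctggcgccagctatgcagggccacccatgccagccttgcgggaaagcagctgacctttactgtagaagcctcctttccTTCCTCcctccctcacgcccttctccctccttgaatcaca
Cd68: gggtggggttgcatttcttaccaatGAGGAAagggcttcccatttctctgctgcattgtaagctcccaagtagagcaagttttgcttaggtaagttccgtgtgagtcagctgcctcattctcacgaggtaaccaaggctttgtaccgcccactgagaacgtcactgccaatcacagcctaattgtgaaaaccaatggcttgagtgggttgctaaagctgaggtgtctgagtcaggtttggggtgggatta
Fcgr1: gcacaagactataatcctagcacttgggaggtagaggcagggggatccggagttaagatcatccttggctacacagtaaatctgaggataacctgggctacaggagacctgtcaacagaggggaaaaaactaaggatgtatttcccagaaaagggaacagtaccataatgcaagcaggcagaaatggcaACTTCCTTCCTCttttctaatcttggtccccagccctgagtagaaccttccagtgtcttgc
Fcgr2b: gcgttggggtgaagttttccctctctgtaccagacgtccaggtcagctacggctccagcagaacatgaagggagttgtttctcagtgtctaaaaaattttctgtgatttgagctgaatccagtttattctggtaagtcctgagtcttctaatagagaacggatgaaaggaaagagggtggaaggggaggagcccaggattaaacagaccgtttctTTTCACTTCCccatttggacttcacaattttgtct
Fcgr3: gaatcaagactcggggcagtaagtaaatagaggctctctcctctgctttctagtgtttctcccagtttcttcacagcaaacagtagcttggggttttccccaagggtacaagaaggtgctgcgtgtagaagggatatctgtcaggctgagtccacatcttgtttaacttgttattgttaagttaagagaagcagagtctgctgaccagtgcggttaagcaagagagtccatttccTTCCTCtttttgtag
The nucleotide receptor gene P2ry12 held AGGAAGT with its first base 52 bases before the start, and Trem2 held GAGGAA on the opposite strand 40 bases before it. In the Fcgr1 promoter GAGGAA and AGGAAGT overlapped on the opposite strand and so print as a single capital run, and the Fcgr2b promoter held the composite site 35 bases before the start. Of the members, 29 had a promoter in the RefSeq table, and 16 of those 29 held GAGGAA within the window, as did 25.9% of the 27025 genes in the table. AGGAAGT was in 6 of 29 and in 8.8% of all genes, and the composite site was in Fcgr2b alone of the 29 and in 2.68% of all genes. A match says only that these letters are there, and GAGGAA and AGGAAGT can overlap each other. Csf1r, Spi1, Gpr34, Tmem119, Selplg, Tyrobp, Itgb2 and Adgre1 had no entry in the table used.

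Levels of different genes were compared in TPM, which scales counts by annotated exon length and by library. Lgmn, a lysosomal cysteine protease, had the highest TPM of the 37 in all 4 groups, at 130.3 ± 10.5 TPM in KO hippocampus, 132 ± 3.67 in WT hippocampus, 155 ± 7.51 in KO cerebellum and 152 ± 7.33 in WT cerebellum (SD, n = 3 each). Ctss, the lysosomal protease cathepsin S, was the second and Csf1r the third in each group. Below them stood P2ry12 and Cx3cr1 in hippocampus, at 50.8 ± 2.94 and 39.1 ± 0.378 TPM in KO mice and 51.8 ± 4.13 and 39.05 ± 4.99 TPM in WT mice. In cerebellum these 2 receptor genes were within 1 SD of each other, at 16.2 ± 0.888 and 16.6 ± 0.281 TPM in KO mice and 15.3 ± 1.31 and 15.8 ± 1.16 TPM in WT mice. Tyrobp, which encodes the adaptor DAP12, led the immune signalling genes in all groups, at 20.02 ± 1.92 TPM in KO cerebellum and 12.7 ± 2.30 TPM in WT cerebellum. Fcgr3, Cd53 and Csf1r led the Fc receptor, adhesion and growth factor or transcription factor genes. Runx1 was lowest of the 37 in every group, at 0.276 to 0.449 TPM, and Ptprc, the leukocyte phosphatase CD45, was next lowest.

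The first comparison set hippocampus against cerebellum within each genotype. Microglia genes were higher in hippocampus: 32 of 37 rose there relative to cerebellum in KO mice and Fcgr1 alone fell, and 33 of 37 rose in WT mice and 0 fell. Among all 18200 genes tested in KO mice 31.6% were called higher and 32.5% lower in hippocampus, and among 18128 in WT mice 33.1% were called higher and 33.0% lower. The median log2 fold change of the members was 0.96 in KO mice, or 1.94-fold, against -0.025 over all genes tested, and 1.40 in WT mice, or 2.64-fold, against -0.022 over all genes tested. All 32 members called higher in KO mice were also called higher in WT mice, as was Cd84, and blocked by animal, which pairs the tissues, 30 were called higher in KO mice. In whole tissue, fewer cells of a type and less RNA per cell cannot be told apart.

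**Figure D1:**
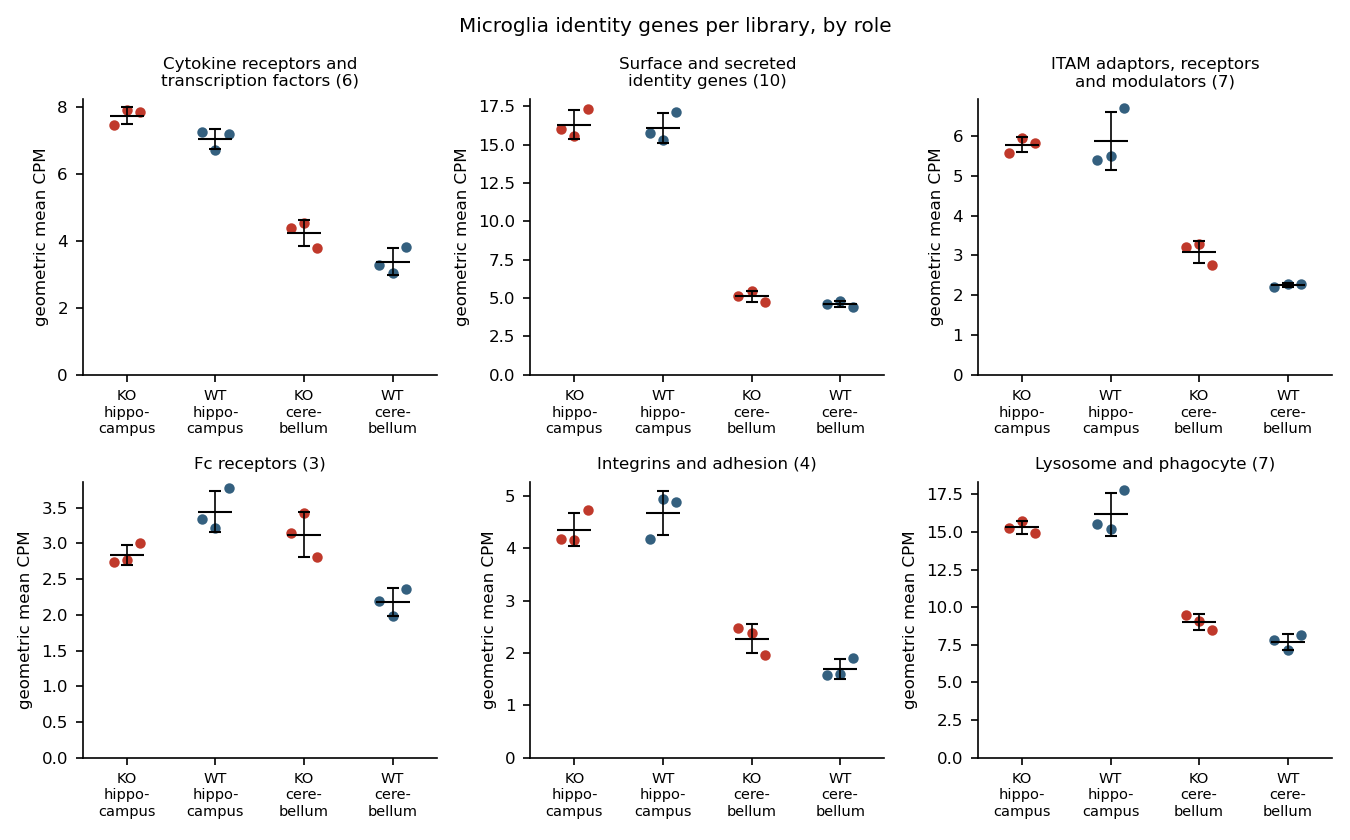
Level of each role of microglia genes in every library, as the geometric mean of TMM-scaled CPM over the genes of the role, with KO left of WT in each tissue, a point per library, and the mean with its SD (n = 3). All roles but the Fc receptors lie higher in hippocampus than in cerebellum in both genotypes. The Fc receptors overlap in KO mice, at 2.74, 2.77 and 3.003 CPM in hippocampus and 3.14, 3.43 and 2.81 CPM in cerebellum. In WT mice they lie higher in hippocampus, at 3.35, 3.22 and 3.77 CPM against 2.19, 1.98 and 2.37 CPM in cerebellum.

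The surface and secreted genes of resting microglia had the highest median of the roles, with all 10 called higher in hippocampus in both genotypes and a median log2 fold change of 1.67 in KO mice and 1.71 in WT mice. Slc2a5, a fructose transporter that is nearly specific to microglia in the brain, had 4.32, 3.98 and 4.43 CPM in KO hippocampus against 0.918, 0.715 and 0.564 CPM in KO cerebellum. In WT mice it had 4.26, 3.58 and 3.89 CPM in hippocampus against 0.554, 0.789 and 0.518 CPM in cerebellum. Its log2 fold change was 2.53 ± 0.22 in KO mice (SE, adjusted p = 6.24e-06) and 2.64 ± 0.23 in WT mice (adjusted p = 4.48e-07), the highest of the 37 in each genotype, and the tissues did not overlap. P2ry12, the ADP receptor that steers microglial processes, had 32.7, 30.4 and 34.5 CPM in KO hippocampus against 9.44, 8.99 and 9.92 CPM in KO cerebellum. In WT mice it had 32.1, 31.3 and 37.3 CPM in hippocampus against 8.19, 9.25 and 9.66 CPM in cerebellum. Every hippocampus library was far above every cerebellum library, and the log2 fold change was 1.78 ± 0.079 in KO mice and 1.90 ± 0.095 in WT mice.

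Cx3cr1, the receptor for the neuronal ligand fractalkine, had 43.5, 43.9 and 45.3 CPM in KO hippocampus against 17.2, 17.4 and 16.7 CPM in KO cerebellum, and 42.4, 39.8 and 52.2 CPM in WT hippocampus against 16.5, 15.3 and 17.5 CPM in WT cerebellum. Its log2 fold change was 1.37 ± 0.060 in KO mice and 1.46 ± 0.099 in WT mice. Tmem119, a membrane protein used to tell microglia from other macrophages, differed by 1.48 ± 0.092 in KO mice and 1.53 ± 0.10 in WT mice on the same scale, and Siglech, a sialic acid-binding receptor, by 1.93 ± 0.14 and 1.85 ± 0.12. Slc2a5 and Tmem119 in both genotypes, Cx3cr1 in WT mice and Fcrls and Siglech in KO mice were named after their values had been seen. Fcrls, an Fc receptor-like gene of mouse microglia, had 19.9, 18.7 and 17.9 CPM in KO hippocampus against 6.13, 6.10 and 4.91 CPM in KO cerebellum, and 19.8, 20.5 and 21.4 CPM in WT hippocampus against 4.27, 3.73 and 3.41 CPM in WT cerebellum. Its log2 fold change was 1.73 ± 0.11 in KO mice (adjusted p = 7.12e-07) and 2.45 ± 0.11 in WT mice (adjusted p = 4.79e-10), without overlap of the tissues. P2ry13, another ADP receptor, and Gpr34, a lysophosphatidylserine receptor, with Selplg, a selectin ligand, and the secreted Olfml3 had log2 fold changes of 0.96 to 1.79 in KO mice and 1.17 to 1.79 in WT mice.

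Of the growth factor receptors and transcription factors, 5 of 6 were called higher in hippocampus in each genotype, and Spi1 lost its call in KO mice when blocked by animal (0.79, adjusted p = 0.0525). Csf1r, the survival receptor of microglia, had 82.7, 74.7 and 89.5 CPM in KO hippocampus against 32.5, 33.8 and 31.5 CPM in KO cerebellum, and 76.4, 74.2 and 88.4 CPM in WT hippocampus against 31.4, 27.9 and 30.5 CPM in WT cerebellum. The tissues did not overlap, with log2 fold changes of 1.34 ± 0.071 in KO mice and 1.42 ± 0.075 in WT mice. Of its annotated exon bases 15.1% are shared with Hmgxb3 on the opposite strand, and no source says whether the counting used strand. Sall1, which represses inflammatory genes in microglia, had 26.1, 26.8 and 28.04 CPM in KO hippocampus against 12.1, 14.4 and 11.1 CPM in KO cerebellum, and log2 fold changes of 1.11 ± 0.099 in KO mice and 1.17 ± 0.076 in WT mice. Spi1, Irf8 and Csf3r, the receptor of granulocyte colony-stimulating factor, were higher by 0.80 to 1.004 in KO mice and by 1.27 to 1.43 in WT mice. Runx1 was not called, at 1.58, 1.30 and 0.995 CPM in KO hippocampus against 1.36, 0.988 and 1.36 CPM in KO cerebellum (0.060 ± 0.27, adjusted p = 0.858) and 1.03, 0.989 and 0.511 CPM in WT hippocampus against 1.15, 0.816 and 0.883 CPM in WT cerebellum (-0.15 ± 0.34, adjusted p = 0.717). Its tissues overlapped, and the sign of either value turned when single libraries were left out.

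Among the genes that signal through immunoreceptor motifs and their modulators, 6 of 7 were called higher in hippocampus in KO mice and all 7 in WT mice, and Fcer1g lost its call in KO mice when blocked by animal (0.54, adjusted p = 0.089). Inpp5d, the lipid phosphatase SHIP1 that dampens this signalling, had 11.4, 10.7 and 14.3 CPM in KO hippocampus against 4.22, 3.81 and 3.78 CPM in KO cerebellum, and log2 fold changes of 1.62 ± 0.14 in KO mice and 1.82 ± 0.12 in WT mice. Trem2, the lipid-sensing receptor that pairs with DAP12, had 9.35, 8.81 and 9.40 CPM in KO hippocampus against 5.40, 4.80 and 4.71 CPM in KO cerebellum, a log2 fold change of 0.89 ± 0.12. In WT mice Trem2 had 9.11, 8.71 and 10.7 CPM in hippocampus against 2.02, 3.10 and 4.48 CPM in cerebellum, a log2 fold change of 1.56 ± 0.21. The tissues of each genotype did not overlap for Trem2 or Inpp5d, nor for Cd33, a sialic acid-binding receptor. The log2 fold change of Cd33 was 1.34 ± 0.11 in KO mice and 1.79 ± 0.13 in WT mice. Cd84, an adhesion receptor of the SLAM family, was not called in KO mice (0.56 ± 0.27, adjusted p = 0.0978) but was in WT mice (0.87 ± 0.25, adjusted p = 0.00836). The difference between these values was not called (-0.30 ± 0.38, adjusted p = 0.975). Without WT hippocampus replicate 3 the call in WT mice was lost (0.62, adjusted p = 0.0501), and without KO cerebellum replicate 2 Cd84 was called in KO mice (0.82, adjusted p = 0.0346).

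The Fc receptors, which bind antibody-coated particles, had the lowest median of the roles in both genotypes, -0.20 in KO mice and 0.51 in WT mice. Fcgr3, an activating receptor, was called higher in hippocampus in both (0.90 ± 0.17 in KO mice and 1.38 ± 0.17 in WT mice). Fcgr2b, the inhibitory receptor, was called in neither (-0.20 ± 0.20, adjusted p = 0.389, in KO mice, and 0.51 ± 0.22, adjusted p = 0.0585, in WT mice), but without WT hippocampus replicate 1 it was called in WT mice (0.66, adjusted p = 0.0221). Fcgr1, the high-affinity IgG receptor, had 1.70, 1.69 and 2.23 CPM in KO hippocampus against 3.34, 4.60 and 4.31 CPM in KO cerebellum, and 2.64, 1.90 and 2.60 CPM in WT hippocampus against 1.90, 2.09 and 2.50 CPM in WT cerebellum. It was lower in KO hippocampus than in KO cerebellum (-1.12 ± 0.20, adjusted p = 8.79e-04) without overlap, while its tissues overlapped in WT mice (0.14 ± 0.21, adjusted p = 0.584). Fcgr2b and Fcgr3 are close paralogs, and reads shared between them could be split by the counting.

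All 4 adhesion genes were called higher in hippocampus in both genotypes. Itgam and Itgb2 encode the chains of complement receptor 3 (CD11b and CD18). Itgam had 5.11, 3.73 and 5.56 CPM in KO hippocampus against 2.46, 1.84 and 1.16 CPM in KO cerebellum, and 3.39, 5.25 and 5.23 CPM in WT hippocampus against 1.62, 1.09 and 1.46 CPM in WT cerebellum, with log2 fold changes of 1.40 ± 0.27 in KO mice and 1.76 ± 0.23 in WT mice. The tissues did not overlap, but 68.7% of the annotated exon bases of Itgam are shared with Gm49368 on the same strand, so its counts are uncertain. Itgb2, whose KO value was named after it had been seen, differed by 0.60 ± 0.19 in KO mice and 1.38 ± 0.19 in WT mice, Adgre1, the macrophage marker F4/80, by 0.77 ± 0.17 and 1.54 ± 0.18, and Cd53, a tetraspanin of leukocytes, by 0.94 ± 0.18 and 1.18 ± 0.18.

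Of the lysosomal and phagocytic genes, 6 of 7 were called higher in hippocampus in each genotype. Laptm5, a lysosomal membrane protein of blood-derived cells, had 27.3, 27.02 and 28.1 CPM in KO hippocampus against 12.6, 11.9 and 11.2 CPM in KO cerebellum, with log2 fold changes of 1.21 ± 0.074 in KO mice and 1.44 ± 0.075 in WT mice and no overlap. Ctss lay at 0.63 ± 0.084 in KO mice and 0.93 ± 0.098 in WT mice, and Mpeg1, the pore-forming protein perforin-2, at 0.87 ± 0.11 and 1.35 ± 0.11. Aif1, the actin-binding protein IBA1 that is the usual stain for microglia and was named after its values had been seen, lay at 1.47 ± 0.26 and 1.40 ± 0.24. Lgmn was not called, at 68.7, 77.01 and 82.7 CPM in KO hippocampus against 86.2, 83.9 and 77.6 CPM in KO cerebellum (-0.12 ± 0.070, adjusted p = 0.178) and 80.4, 75.6 and 78.3 CPM in WT hippocampus against 80.1, 86.7 and 78.01 CPM in WT cerebellum (-0.056 ± 0.052, adjusted p = 0.363). The tissues overlapped in both genotypes.

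**Figure D2:**
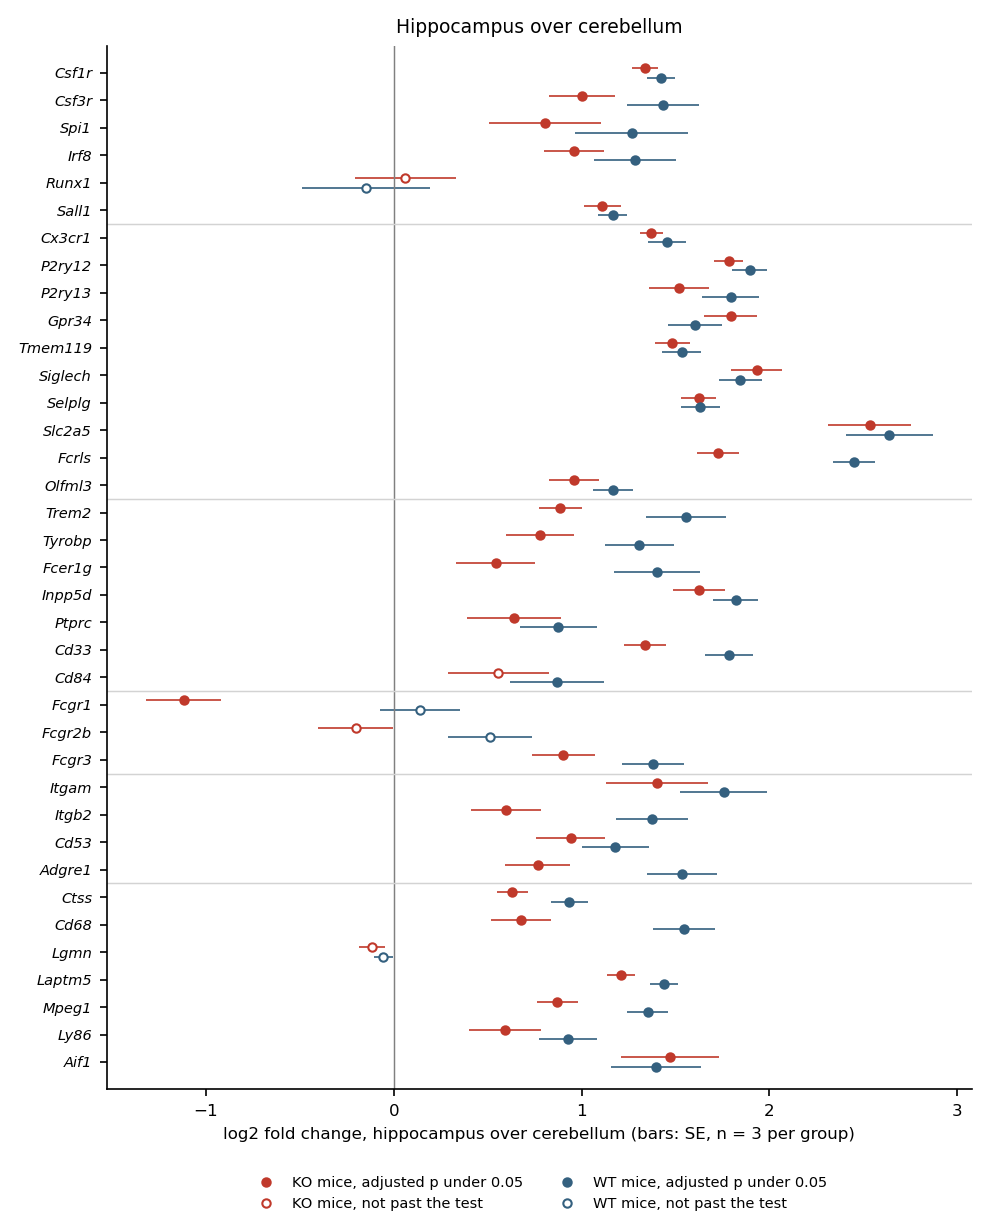
Log2 fold change of each of the 37 genes in hippocampus over cerebellum, with bars of 1 SE, in KO mice and WT mice, grouped by role. Values above 0 are higher in hippocampus: Fcgr1 lies below 0 in KO mice, Slc2a5 and Fcrls lie farthest to the other side in WT mice, and Runx1 and Lgmn lie near 0 in both.

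The second comparison set KO against WT cerebellum. None of the 37 microglia genes was called by edgeR over all 17733 genes tested, of which 0.0113% were called. The log2 fold change was above 0 for 35 of 37 members, against 51.0% of all genes, with a median of 0.30, or 1.23-fold, against 0.002 over all genes, and 7.38% of all genes lay above that median. At an unadjusted p under 0.05, 11 of 37 were higher and 0 were lower, against 3.85% and 2.92% of all genes. DESeq2, which called 0.254% of the 14981 genes to which it gave an adjusted p, called Fcgr1 alone (adjusted p = 0.0432). With no filter on low counts, edgeR called 4 of 37 higher (Fcgr1, Cd68, Fcrls and Trem2), against 0.723% of 32360 genes. The KO and WT libraries did not overlap for 14 of 37 members, all higher in KO, against 5.83% of all genes higher and 6.24% lower.

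The immune signalling genes had the highest median of the roles, 0.53 on the log2 scale, with all 7 above 0 and 5 without overlap. Tyrobp had 3.05, 3.37 and 2.75 CPM in KO cerebellum against 1.62, 1.96 and 2.31 CPM in WT cerebellum, a log2 fold change of 0.64 ± 0.18 (edgeR adjusted p = 0.628). Its partner Trem2 had 5.40, 4.80 and 4.71 CPM in KO cerebellum against 2.02, 3.10 and 4.48 CPM in WT cerebellum, a log2 fold change of 0.63 ± 0.23, which was 0.40 without WT cerebellum replicate 1 and 0.95 without WT cerebellum replicate 3. Cd33 had 4.22, 4.26 and 4.64 CPM in KO cerebellum against 2.89, 3.35 and 2.89 CPM in WT cerebellum (0.53 ± 0.14). For each of the 3 genes the lowest KO library was above the highest WT library, and the exact permutation test then gives its smallest possible p for 3 against 3, 0.1. Fcer1g and Inpp5d were the other members of this role without overlap, with log2 fold changes of 0.56 and 0.15, while Ptprc (0.27) and Cd84 (0.38) overlapped. Without KO cerebellum replicate 2 the values of Ptprc and Cd84 were 0.050 and 0.12, and without KO cerebellum replicate 3 they were 0.45 and 0.58.

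Fcgr1 had the smallest p of the 37. It had 3.34, 4.60 and 4.31 CPM in KO cerebellum against 1.90, 2.09 and 2.50 CPM in WT cerebellum, a log2 fold change of 0.92 ± 0.18, or 1.89-fold (edgeR adjusted p = 0.313), and its groups did not overlap. Fcgr3 and Fcgr2b lay at 0.37 and 0.31 on the log2 scale, each with overlap. Cd68, a lysosomal glycoprotein that marks phagocytic activity, came next, with 3.42, 3.30 and 3.95 CPM in KO cerebellum against 2.18, 2.04 and 2.35 CPM in WT cerebellum (0.71 ± 0.16, edgeR adjusted p = 0.456). The other lysosomal and phagocytic genes were nearer 0, with a median of 0.19 over the 7. Mpeg1 had 16.5, 15.2 and 12.8 CPM in KO cerebellum against 12.3, 10.04 and 12.9 CPM in WT cerebellum, and Lgmn had 86.2, 83.9 and 77.6 against 80.1, 86.7 and 78.01 CPM. Both overlapped between the genotypes. Laptm5, named after its values had been seen, did not overlap. It had 12.6, 11.9 and 11.2 CPM in KO cerebellum against 11.1, 10.4 and 10.6 CPM in WT cerebellum (0.16 ± 0.091, edgeR adjusted p = 0.782).

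Among the adhesion genes, Adgre1 had 2.68, 2.28 and 2.42 CPM in KO cerebellum against 1.62, 1.41 and 1.92 CPM in WT cerebellum (0.58 ± 0.19). Itgb2 had 3.12, 2.90 and 2.16 against 1.39, 2.12 and 1.89 CPM (0.59 ± 0.22). Neither overlapped, while Cd53 lay at 0.17 with overlap. Of the transcription factors, Irf8 had 2.68, 2.96 and 2.52 CPM in KO cerebellum against 1.66, 1.82 and 2.35 CPM in WT cerebellum (0.49 ± 0.19), without overlap. Csf1r had 32.5, 33.8 and 31.5 against 31.4, 27.9 and 30.5 CPM, a log2 fold change of 0.13 ± 0.064, also without overlap.

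The surface receptors of resting microglia had the lowest median of the roles, 0.067. P2ry12 had 9.44, 8.99 and 9.92 CPM in KO cerebellum against 8.19, 9.25 and 9.66 CPM in WT cerebellum (0.070 ± 0.10, adjusted p = 0.925). Tmem119 had 5.69, 6.37 and 5.91 against 6.76, 5.98 and 5.67 CPM (-0.025 ± 0.12), and Siglech had 3.75, 4.05 and 3.65 against 3.72, 3.89 and 4.14 CPM (-0.032 ± 0.13). Cx3cr1 lay at 0.064 ± 0.079. All 4 genes overlapped between KO and WT cerebellum, and Cx3cr1, Tmem119 and Siglech were named after their values had been seen. Fcrls and P2ry13 were the members of this role without overlap. Fcrls had 6.13, 6.10 and 4.91 CPM in KO cerebellum against 4.27, 3.73 and 3.41 CPM in WT cerebellum (0.60 ± 0.15, edgeR adjusted p = 0.566). P2ry13, also named after its values had been seen, had 3.45, 3.64 and 2.99 against 2.37, 2.94 and 2.65 CPM (0.34 ± 0.16, edgeR adjusted p = 0.736).

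The KO cerebellum libraries were not alike. The geometric mean over the 37 genes was 4.56, 4.66 and 4.01 CPM in KO cerebellum against 3.52, 3.45 and 3.72 CPM in WT cerebellum, without overlap. KO cerebellum replicate 2 was the highest of the 6 libraries for 16 members, replicate 1 for 12 and replicate 3 for 4, and the 3 WT libraries for the other 5 between them. The median log2 fold change of the members was 0.175 without KO cerebellum replicate 2 and 0.41 without replicate 3, so its size rests in part on single libraries. Brainstem neuron markers summed to 21.1, 38.3 and 1.23 CPM in KO cerebellum against 5.89, 1.47 and 2.04 CPM in WT cerebellum, in the order of the replicates, and choroid plexus markers to 1532, 2888 and 182 CPM against 3338, 4438 and 1892 CPM. Across the KO cerebellum libraries the geometric mean of the microglia genes had the same order as both sums, with replicate 3 lowest in each. Across the WT cerebellum libraries it did not. The brainstem sum of KO replicate 3 was below, and its geometric mean above, those of all 3 WT libraries. A link between these values was not tested.

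**Figure D3:**
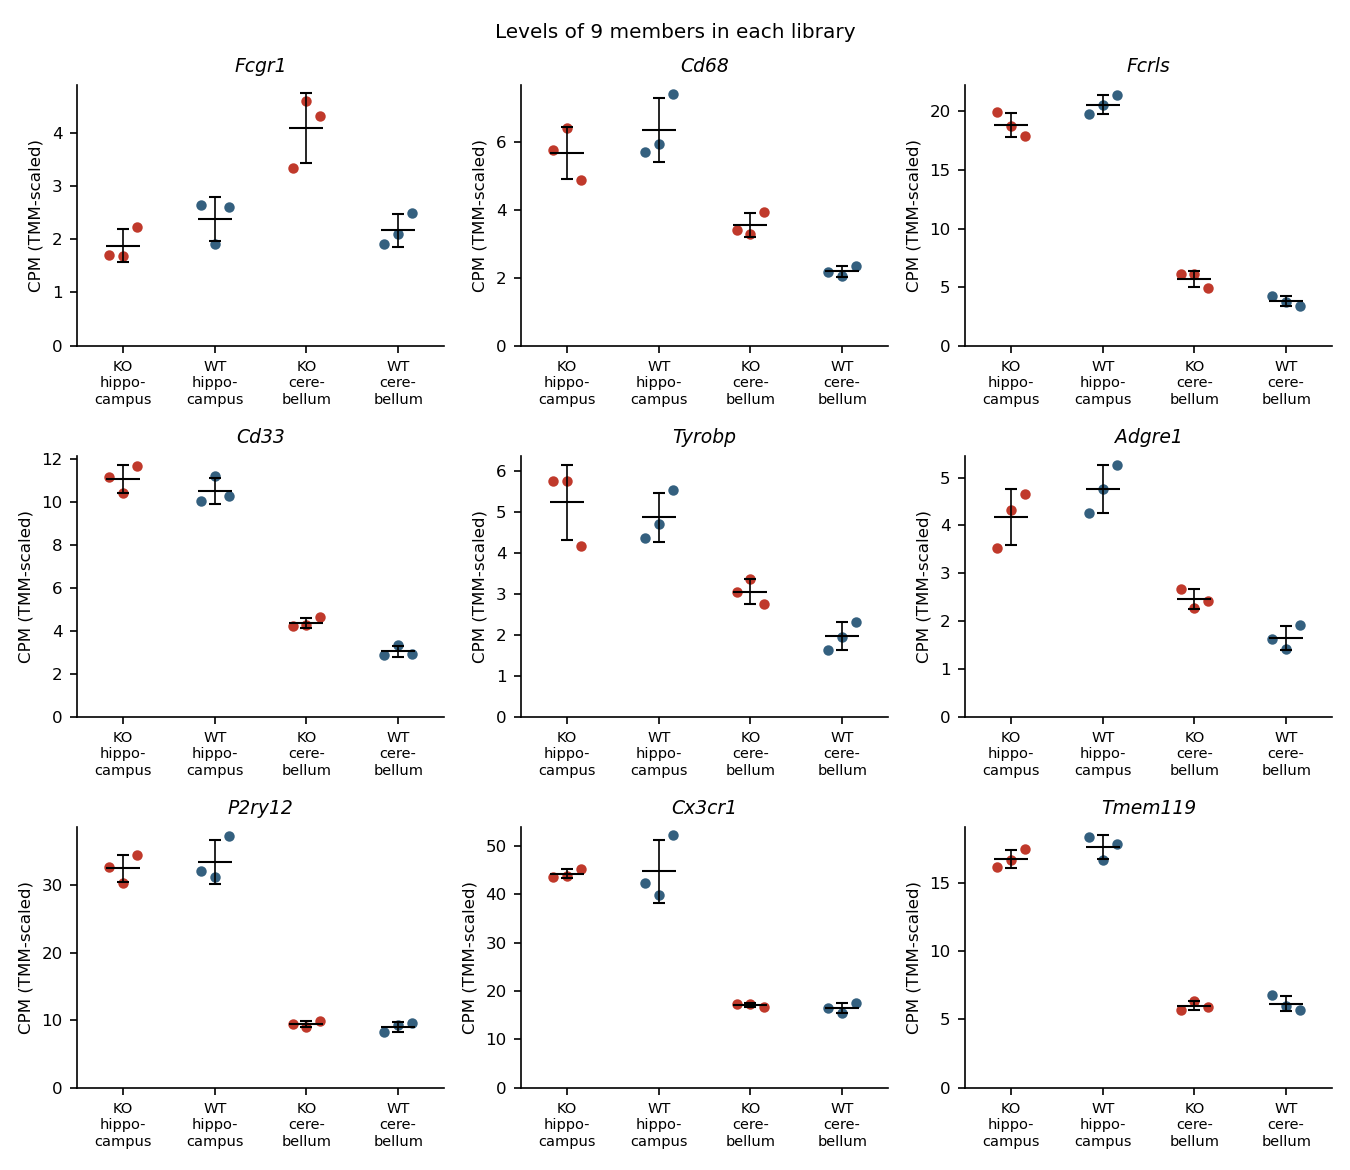
Level in TMM-scaled CPM, in every library, of the 6 members with the smallest p in the cerebellum comparison and of P2ry12, Cx3cr1 and Tmem119, with KO left of WT in each tissue and the mean with its SD (n = 3). In cerebellum the KO points of Fcgr1, Cd68, Fcrls, Cd33, Tyrobp and Adgre1 lie above all WT points, while those of P2ry12, Cx3cr1 and Tmem119 are mixed with them.

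Markers of other cells were measured in the same cerebellum libraries. Border-associated macrophages sit in the meninges and around vessels and share many genes with microglia. Their 10 markers summed to 31.0 to 36.8 CPM in KO cerebellum against 32.2 to 38.1 CPM in WT cerebellum. Of the 9 tested markers 5 were above 0, against 51.0% of all genes, with a median log2 fold change of 0.026. Blood monocyte and neutrophil markers summed to 1.10 to 3.24 CPM in KO cerebellum against 2.06 to 2.47 CPM in WT cerebellum, over 12 genes, and only 2 were high enough to be tested. Oligodendrocyte markers summed to 6146 to 6772 CPM in KO cerebellum against 5647 to 6103 CPM in WT cerebellum, without overlap. Red cell markers summed to 85.8 to 117 CPM against 76.2 to 112 CPM and overlapped. The part of brainstem and oligodendrocyte content in the microglia values was not tested.

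**Figure D4:**
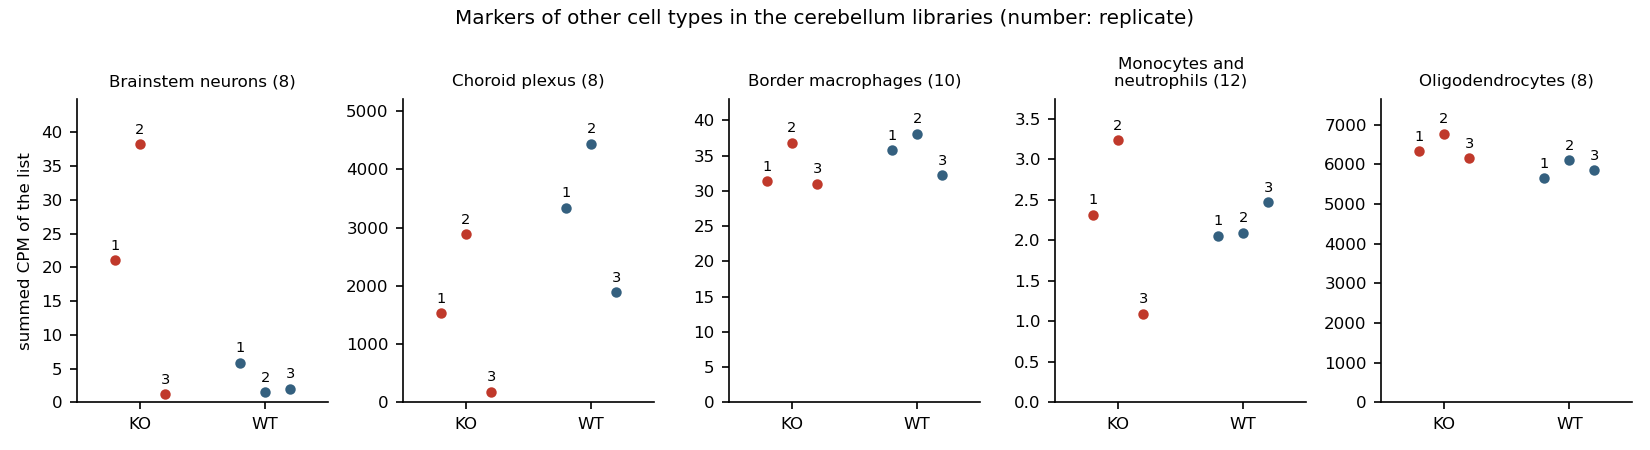
Summed CPM of 5 marker lists of other cells in each cerebellum library, KO left of WT, with the replicate number at each point. Border macrophage markers overlap between the genotypes, oligodendrocyte markers do not, and brainstem markers reach 21.1 and 38.3 CPM in KO replicates 1 and 2 but 1.23 CPM in replicate 3.

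The third comparison set KO against WT hippocampus. No microglia gene was called by edgeR among 17693 genes tested, of which 0% were called. None was called by DESeq2, which called 0.0226% of the 17691 genes to which it gave an adjusted p. At an unadjusted p under 0.05, 0 of 37 were higher and 0 lower, against 2.57% and 1.77% of all genes. The log2 fold change was above 0 for 16 of 37 members, against 50.8% of all genes, with a median of -0.024 against 0.002 over all genes. The geometric mean over the members was 8.61, 8.78 and 9.09 CPM in KO hippocampus against 8.65, 8.59 and 9.70 CPM in WT hippocampus, and the groups overlapped. Without WT hippocampus replicate 3, the highest library for 16 of the 37 genes, the median turned to 0.049.

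P2ry12 had 32.7, 30.4 and 34.5 CPM in KO hippocampus against 32.1, 31.3 and 37.3 CPM in WT hippocampus (-0.033 ± 0.080), and Csf1r had 82.7, 74.7 and 89.5 against 76.4, 74.2 and 88.4 CPM (0.059 ± 0.076). Laptm5, named after its values had been seen, was the only member whose groups did not overlap, with 27.3, 27.02 and 28.1 CPM in KO hippocampus against 28.8, 28.6 and 29.2 CPM in WT hippocampus, and 5.73% of all genes were lower without overlap. Its log2 fold change was -0.060 ± 0.063 (adjusted p = 0.995). The Fc receptor genes lay below 0, Fcgr2b at -0.40 ± 0.23, Fcgr1 at -0.33 ± 0.23 and Fcgr3 at -0.098 ± 0.14, each with overlap. Runx1 had the largest value, 0.62 ± 0.35, on 1.58, 1.30 and 0.995 CPM in KO hippocampus against 1.03, 0.989 and 0.511 CPM in WT hippocampus, which also overlapped. Gpr34 had the smallest p of the 37 (0.229 ± 0.125, edgeR adjusted p = 0.995). It had 12.4, 11.2 and 12.5 CPM in KO hippocampus against 8.52, 10.8 and 11.7 CPM in WT hippocampus, with overlap. Endothelial markers summed to 213 to 247 CPM in KO hippocampus against 258 to 292 CPM in WT hippocampus, and border macrophage markers to 27.3 to 29.9 CPM against 29.8 to 38.8 CPM, and their part in the microglia values was not tested.

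**Figure D5:**
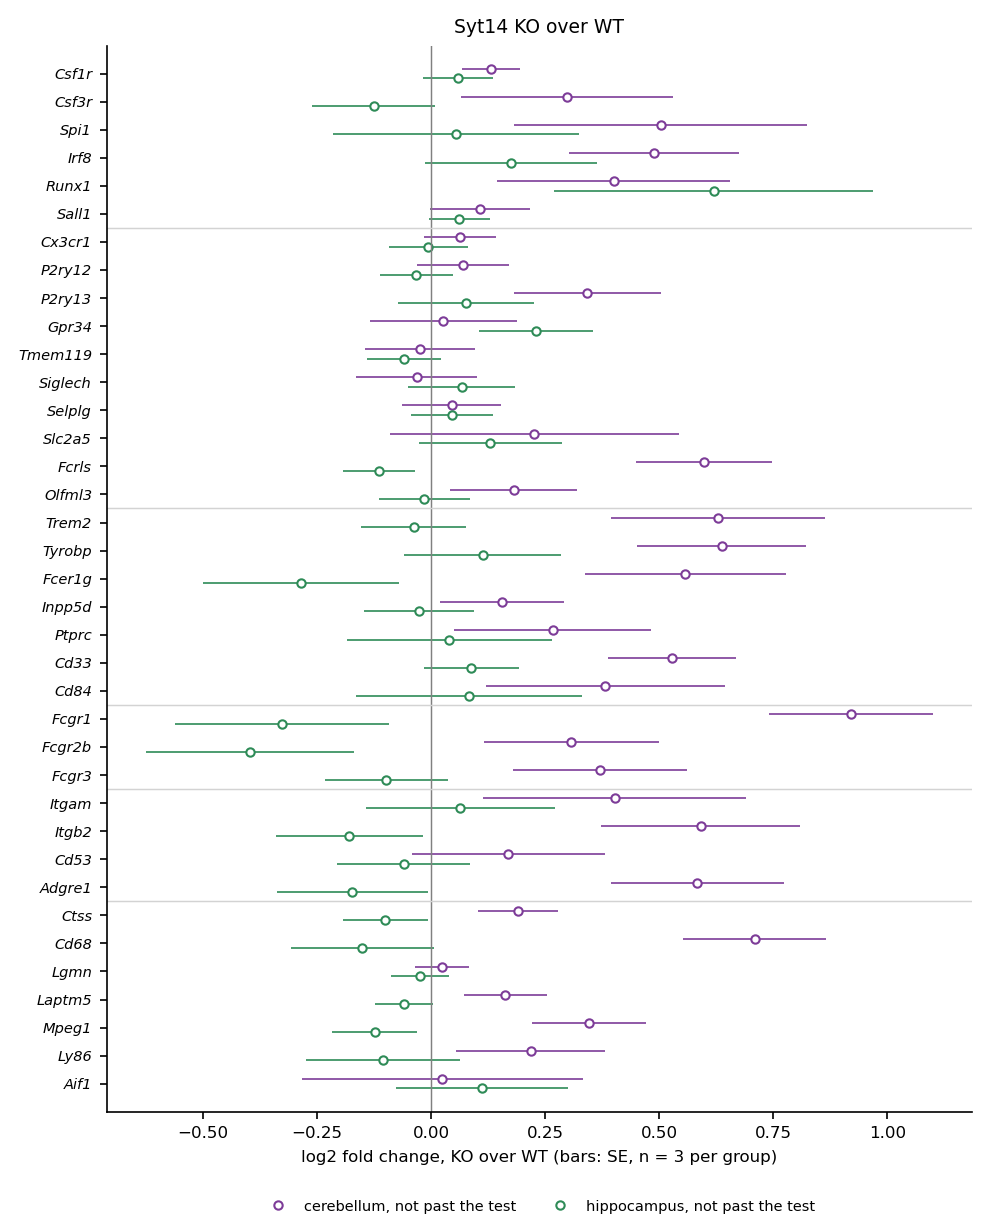
Log2 fold change of each of the 37 genes in KO over WT, with bars of 1 SE, in cerebellum and in hippocampus, grouped by role. In cerebellum 35 of 37 genes lie above 0, with Fcgr1 and Cd68 farthest from it, and in hippocampus 16 of 37 lie above 0.

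The difference of the KO effect between the tissues, hippocampus minus cerebellum, was tested over all 12 libraries. It uses the same libraries as the comparisons above and is the same quantity as the difference of the tissue fold changes between KO and WT mice, so it is no separate evidence. None of 37 members was called by edgeR, against 0.0105% of 19027 genes. DESeq2, which called 0.0815% of the 13490 genes to which it gave an adjusted p, called Fcrls alone (adjusted p = 0.0492). With no filter on low counts, edgeR called 3 of 37 below 0 (Fcgr1, Fcrls and Mpeg1), against 0.594% of 35179 genes. At an unadjusted p under 0.05, 11 of 37 were below 0 and 0 above, against 3.08% and 2.26% of all genes. The value was above 0 for 4 of 37 members (Runx1, Gpr34, Siglech and Aif1, of which Gpr34 alone kept the sign without each single library), against 49.2% of all genes, with a median of -0.29.

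Fcrls had the smallest p, with an effect of -0.12 in hippocampus and 0.60 in cerebellum and a difference of -0.72 ± 0.15 (edgeR adjusted p = 0.701). Without KO cerebellum replicate 3 it was called, at -0.82 (adjusted p = 0.0365), against 0.226% of 19496 genes called below 0. Fcgr1 had the largest difference, -1.25 ± 0.28 (edgeR adjusted p = 0.701), and Cd68 followed with -0.86 ± 0.22. The Fc receptors had the lowest median of the roles, -0.71, and the surface receptors the one nearest 0, -0.084. P2ry12 lay at -0.10 ± 0.12, Tmem119, named after its value had been seen, at -0.039 and Csf1r at -0.074 ± 0.11.

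Genes that act on microglia or share their expression gave context. Of 12 ligands and TGF-beta pathway genes, none was called between KO and WT in either tissue by edgeR or DESeq2, with 2 higher and 0 lower in cerebellum and 0 higher and 1 lower in hippocampus at an unadjusted p under 0.05. Of all genes, 3.85% were higher and 2.92% lower at that p in cerebellum, and 2.57% and 1.77% in hippocampus. Between tissues, 7 of the 12 were higher and 3 lower in hippocampus in KO mice, against 31.6% and 32.5% of all genes. In WT mice 7 were higher and 2 lower, against 33.1% and 33.0%. Cx3cl1, the neuronal ligand of CX3CR1, had 547, 527 and 555 CPM in WT hippocampus against 61.4, 57.7 and 59.8 CPM in WT cerebellum (3.19 ± 0.050), and Il34, the neuronal ligand of the Csf1r product, had 36.2, 33.1 and 37.8 against 8.15, 7.32 and 5.33 CPM (2.38 ± 0.12). Tgfb2 was also higher (1.87 ± 0.075). Csf1, the other ligand, lay between 27.0 and 34.7 CPM in all 12 libraries.

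Of 31 other genes enriched in microglia, 21 were higher and 4 lower in hippocampus in KO mice, against 31.6% and 32.5% of all genes. In WT mice 24 were higher and 2 lower, against 33.1% and 33.0%. Cyth4 and Lyn had the smallest p in WT mice, with log2 fold changes of 2.10 ± 0.12 and -1.56 ± 0.093. In cerebellum none of the 31 was called between KO and WT by edgeR or DESeq2, 25 were above 0, 4 were higher and 0 lower at an unadjusted p under 0.05, and the median was 0.13. Of all genes in cerebellum, 51.0% were above 0, and 3.85% were higher and 2.92% lower at that p. Of 19 genes raised in disease-associated microglia, 18 were tested in cerebellum. None was called by edgeR and 1 by DESeq2 (Lpl), against 0.0113% and 0.254% of all genes with an adjusted p. Of the 18, 12 were above 0 and 6 below, against 51.0% of all genes above 0, and the median was 0.082. At an unadjusted p under 0.05, 4 were higher and 0 lower, against 3.85% and 2.92% of all genes. The 3 of the 18 with the smallest p encode lipoprotein lipase, dectin-1 and CD11c. Lpl had 2.94, 2.21 and 1.56 CPM in KO cerebellum against 0.712, 0.952 and 0.609 CPM in WT cerebellum (1.55 ± 0.29, adjusted p = 0.276), without overlap. In hippocampus Lpl had 34.95, 50.2 and 39.4 CPM in KO mice and 40.2, 44.4 and 52.55 CPM in WT mice. Which cells hold its RNA in these tissues was not tested. Clec7a had 1.21, 0.885 and 1.33 against 0.514, 0.272 and 0.548 CPM (1.38 ± 0.33) and Itgax 0.477, 1.33 and 0.498 against 0.158, 0.326 and 0.213 CPM (1.68 ± 0.51), both at low counts. Gpnmb went the other way without overlap, at 2.02, 1.53 and 1.63 CPM in KO cerebellum against 2.49, 2.31 and 2.04 CPM in WT cerebellum (-0.39 ± 0.19). The 5 complement genes, which microglia and astrocytes also make, were left out of the members. They summed to 60.9 to 62.5 CPM in KO cerebellum against 42.6 to 45.5 CPM in WT cerebellum, without overlap. None was called by edgeR (lowest adjusted p = 0.0559, for C4b). DESeq2 called 2, C1qb and C4b, both higher in KO, against 0.254% of all genes with an adjusted p.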

How the data were processed

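Poly(A) RNA was made into strand-specific libraries by the dUTP method, per the labels' protocols. Tools in the submitters' processing notes are featureCounts 2.0.3, STAR 2.7.10 and Trimmomatic 0.39, and the builds are mm10 and GRCm38. Neither an annotation release nor whether counting used strand is stated there. Whole-number counts per gene were deposited by the authors in a table for each tissue, with totals that differ between libraries. Identifiers were matched to GENCODE M21 (54409 of 54446). Replicates are separate animals.

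Fits used edgeR 4.0.16 in R 4.3.3: TMM factors, genes kept by filterByExpr at a minimum count of 10 and a minimum total of 15, and a two-sided quasi-likelihood test with Benjamini-Hochberg adjustment over all genes, called under 0.05. Each tissue was fitted alone for genotype and each genotype alone for tissue. The difference of effects used all 12 libraries. CPM is scaled by TMM factors over the 12 libraries, and TPM uses GENCODE exon lengths. Alternatives were DESeq2 1.42.0, its size factors (RLE) in edgeR, no count filter, replicate block, 1 fit of all libraries and leaving out each library. The scripts were tested on simulated data. Single values used an exact permutation test.

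Members were picked for naming if called (in tissue comparisons up to 3 per role by p) or if highest in TPM within a role. Where fewer than 10 were called, the 10 with the smallest p were picked. Values per library are printed for some of the members picked and not for all. Members and lists were chosen with earlier results of these data known. Counting error alone would give a chi-square per gene near 1 between libraries of a group; it was 3.22 to 8.46, so none is a repeat. Same-numbered KO and WT cerebellum libraries deviated together (correlation 0.162, 0.222 and 0.346 across genes), and so did KO replicate 2 with WT replicate 1 (0.114). In hippocampus same-numbered libraries did not (-0.039, -0.032 and 0.068). KO and WT libraries come from different animals that the labels do not pair, and what the cerebellum libraries share was not tested. Tissues of an animal are paired by the animal number. Floors cover counting error only.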

Additional observations from a re-analysis of the deposited data

How the results depend on the processing

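Between tissues, 27 of 32 calls in KO mice (not Fcer1g, Itgb2, Ly86, Ptprc and Spi1) and 32 of 33 in WT mice (not Cd84, 0.617 without WT hippocampus replicate 3) held under all alternatives run. In KO mice, leaving out hippocampus replicate 3 or cerebellum replicate 3 ended the call of Itgb2 (0.526 and 0.459), and hippocampus replicate 1, hippocampus replicate 2 or cerebellum replicate 1 that of Ly86 (0.571, 0.466 and 0.483). The same 3 libraries (0.559, 0.527 and 0.638), and cerebellum replicate 3 (0.463), each ended that of Ptprc. The calls of Spi1 and Fcer1g, at adjusted p of 0.0388 and 0.0463, were lost blocked by animal (0.788 and 0.539) and without any 1 of several KO libraries (5 for Spi1, values down to 0.573, and 4 for Fcer1g, down to 0.452), and that of Fcer1g also with DESeq2 (0.564) and with no count filter (0.534). Without KO cerebellum replicate 2, Cd84 was called in KO mice (0.82, adjusted p = 0.0346). In cerebellum, members called higher in KO numbered 1 with DESeq2 (Fcgr1) and 4 with no count filter (Fcgr1, Cd68, Fcrls and Trem2, lowest adjusted p 5.17e-04), where 234 of 32360 genes were called higher, against 2 of 17733 with the filter. For the difference of effects, 1 was called lower with DESeq2 (Fcrls) and 3 with no filter (Fcgr1, Fcrls and Mpeg1, with 209 of 35179 genes lower and 66 higher), and leaving out single libraries gave 0 to 1. The cause of these changes was not tested.

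Leaving out single libraries gave medians of 0.175 to 0.408 in cerebellum, -0.363 to -0.192 for the difference and 0.887 to 1.05 between tissues of KO mice. The sign turned, with no call in any such case, for Csf1r (-0.007 to 0.139), P2ry12 (-0.081 to 0.049), Ctss (-0.168 to 0.029) and Lgmn (-0.087 to 0.039) in KO over WT hippocampus. It turned for Tmem119 (-0.078 to 0.049), Siglech (-0.08 to 0.011) and Lgmn (-0.01 to 0.069) in KO over WT cerebellum. It turned for Csf1r (-0.141 to 0.006), Lgmn (-0.114 to 0.014), Runx1 (-0.04 to 0.377), Tmem119 (-0.114 to 0.013), Siglech (-0.035 to 0.189) and Aif1 (-0.075 to 0.399) for the difference of effects. It turned for Runx1 between tissues of KO mice (-0.1 to 0.236) and of WT mice (-0.309 to 0.109).

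The replicate block (replicate number) called 0 members in cerebellum, with a median of 0.304, and 0 in hippocampus, with -0.027. The labels do not pair KO and WT animals by these numbers in either tissue. Blocked by animal, 30 members were higher and 1 lower in hippocampus in KO mice (median 0.958) and 33 higher in WT mice (1.399), and 0 differed in effect (-0.279). Over all genes, the block by animal called 5565 higher and 5679 lower of 18200 in KO mice and 5970 higher and 5978 lower of 18128 in WT mice, and the block by replicate number called 20 higher and 16 lower in cerebellum and 2 higher and 0 lower in hippocampus.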
